A study of Mus musculus with 12 samples.

Results

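The fibulins examined here were fibulin-1 (Fbln1), fibulin-2 (Fbln2), fibulin-3 (Efemp1) and fibulin-5 (Fbln5). Their members were all array probes that the platform annotation ties to these 4 symbols, which gave 10 of the 45281 probes and 4 of the 19057 gene symbols on the array: 5 for Fbln1, 3 for Fbln2, 1 for Efemp1 and 1 for Fbln5. RNA came from carotid arteries of mice labelled C57Bl/6J, either wild type (WT) or labelled FibVKO (KO), which the design text describes as a knockdown of Fibulin V, that is fibulin-5. In every mouse the left common carotid artery (LCA) was partially ligated, which disturbs its flow, and the right common carotid artery (RCA) was left untouched. The arteries were taken 1 day later, so the 4 groups were WT RCA, WT LCA, KO RCA and KO LCA, with 3 one-colour Illumina arrays each. Age and sex, the altered part of the gene, and whether a group's 3 arrays hold separate mice or pooled arteries are not given in the labels. P-values therefore measure the spread between these arrays, which may be technical. The RCA of a ligated mouse is also not the artery of an unoperated one. The comparison of KO with WT addresses whether relatives of fibulin-5 stood at another level where fibulin-5 was targeted.

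Fibulins are secreted glycoproteins of the extracellular matrix, built from tandem calcium-binding EGF-like modules and a shared C-terminal module. Fibulin-5 binds tropoelastin and helps to deposit it on microfibrils, and mice that lack it have disorganised elastic fibres in arteries, lung and skin. Fibulin-1 and fibulin-2 are larger members found in elastic fibres and basement membranes, and fibulin-2 is known to act beside fibulin-5 in forming the internal elastic lamina. Fibulin-3 is a short fibulin like fibulin-5, with a part in elastic fibres of fascia and a known interaction with the metalloproteinase inhibitor TIMP3.

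The arrays had the same distribution of values, with a lowest intensity of 72.4, a median of 93.6 and a 95th percentile of 197, so probes near the lowest value show compressed differences. As a guide to background, the 95th percentile of 1504 probes for olfactory and vomeronasal receptors was taken on each array, and it lay between 95.7 and 126. It is called the receptor level below. WT LCA replicate 3 stood apart from the rest: its median correlation with the other arrays was 0.678, against 0.764 to 0.859 for the other 11 arrays, and 11.9% of its other named probes exceeded the receptor level, against 23% to 45.3%. Of the 12 endothelial markers, 8 to 11 exceeded the receptor level on a WT array and 10 to 12 on a KO array. Pecam1 and Cdh5 exceeded it on all 12 arrays, and Kdr only on 1 KO LCA array. Of the 12 smooth muscle markers, 1 to 9 exceeded it on a WT array and 7 to 10 on a KO array. The number of arrays limits the precision of all values.

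The targeted gene itself was not measured above background. The Fbln5 probe (ILMN_2681796) averaged 86.8 ± 1.68 (SD, n = 3) for WT RCA, 87.3 ± 0.766 for WT LCA, 89.0 ± 8.36 for KO RCA and 84.7 ± 3.42 for KO LCA, and its 12 values ran from 80.6 to 97.4. It exceeded the receptor level on 0 of 12 arrays, WT arrays included, and its mean of 87.0 lay at the 8.57th percentile of all probes. The KO minus WT difference was 0.033 ± 0.063 (log2, SE) in the RCA and -0.045 ± 0.063 in the LCA. The genotype labels could therefore not be checked by this probe, and where it lies relative to the altered part of Fbln5 is not given in the labels.

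Signal above background came from Efemp1, from 2 probes of Fbln1 and from Fbln2. Of the 40 combinations of a probe and a group, 14 exceeded the receptor level on all 3 arrays of the group and 16 on none. Efemp1 (ILMN_2653462) had the highest mean of the 10 probes, 233, at the 96.1th percentile of all probes, and exceeded the receptor level on 12 of 12 arrays. Fbln2 was above it on 11 of 12 arrays with ILMN_1245307 and with ILMN_3132949, and on 5 of 12 with ILMN_2626153. Fbln1 was above it on 10 of 12 arrays with ILMN_2870672, on 9 of 12 with ILMN_2602770 and on 2 of 12 with ILMN_2449644. Its other probes, ILMN_2497957 and ILMN_2728985, were above it on 0 of 12 and read between 82.1 and 98.3. Intensities of different probes do not rank genes by abundance.

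**Figure D1:**
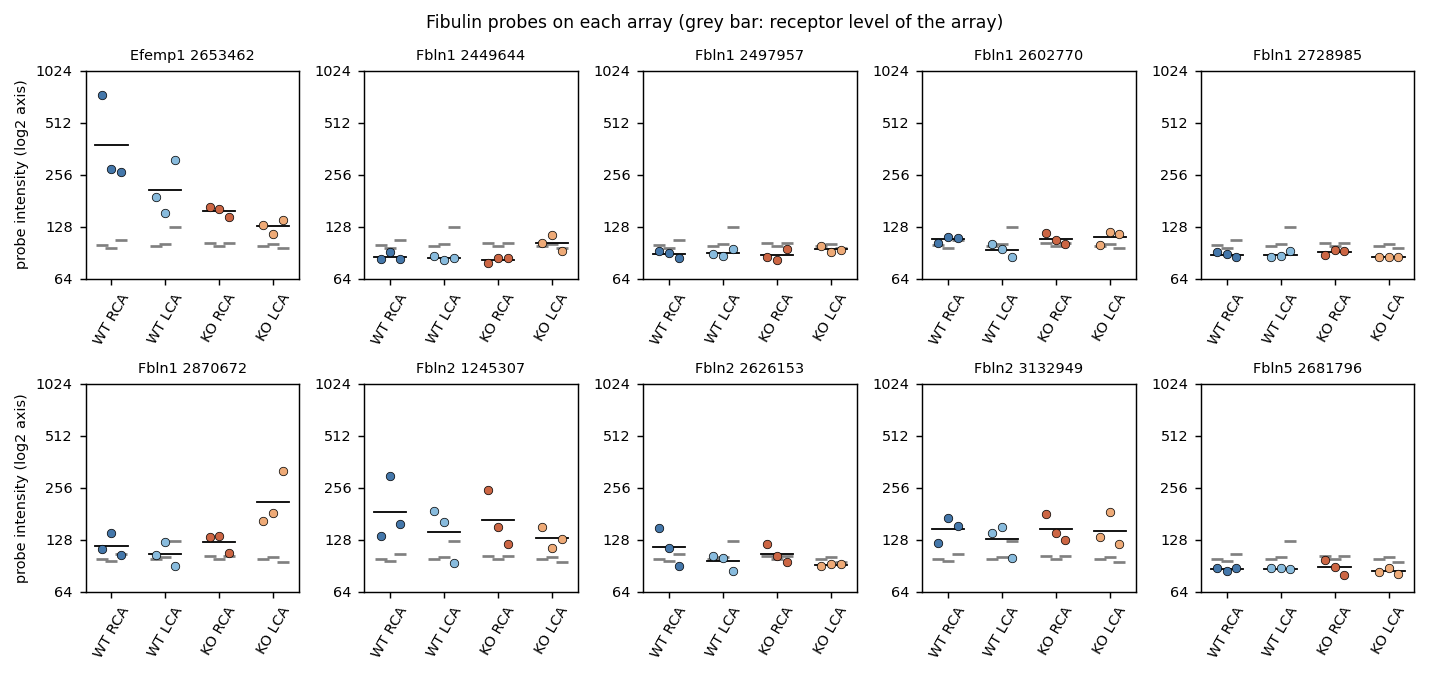
Deposited intensity of each of the 10 fibulin probes on each of the 12 arrays, by group, on a log2 axis. Points are arrays, black bars are the means of the log2 values of a group and grey bars are the receptor level of each array. Efemp1 was lower on all 6 KO arrays than on the WT arrays of the same side, Fbln1 ILMN_2870672 was highest on the 3 KO LCA arrays, and Fbln5 stayed between 80.6 and 97.4.

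In KO arteries, Efemp1 read lower than in WT arteries on both sides without overlap, and 2 Fbln1 probes, 1 of them near background, read higher in the ligated artery without overlap. Fbln2 differed between genotypes by less than its spread. No fibulin probe passed the threshold, an adjusted p of 0.05 in limma with Benjamini-Hochberg adjustment over the 32606 probes kept by a filter on low values, which kept 7 of the 10 fibulin probes. Over all kept probes the percentage passing was 0% in the RCA, 0.0368% (12 probes) in the LCA and 0.0951% (31 probes) with the sides averaged. At an unadjusted p of 0.05, 1 of 7 kept fibulin probes differed in the RCA, where 4.2% of all kept probes did, 2 of 7 in the LCA, where 6.31% did, and 2 of 7 with the sides averaged, where 6.12% did. The median difference of the 7 probes was -0.018 in the RCA and 0.066 in the LCA, beside -0.0018 and -0.0042 over all kept probes.

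Efemp1 intensity in the RCA was 741, 275 and 266 on WT replicates 1 to 3, and 166, 162 and 145 on KO replicates 1 to 3. In the LCA it was 189, 153 and 311 in WT and 131, 116 and 141 in KO. All 3 KO arrays were below all 3 WT arrays on each side, and the WT groups were widely spread, with 1 high array in each. The WT mean was 427 ± 272 (SD, n = 3) for the RCA and 218 ± 82.7 for the LCA. The KO mean was 158 ± 11.1 for the RCA and 129 ± 12.7 for the LCA.

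The KO minus WT difference of Efemp1 was -1.27 ± 0.37 (log2, SE) in the RCA, a 2.4-fold lower level, with a 95% interval of -2.10 to -0.43, a limma p of 0.00718 and an adjusted p of 1. In the LCA it was -0.69 ± 0.37, with an interval of -1.53 to 0.14, a limma p of 0.0936 and an adjusted p of 0.792. Averaged over both sides it was -0.98 ± 0.26 (limma adjusted p = 0.369). By size it was the 22nd lowest of 32606 differences in that average, but by limma p it ranked 371st. Efemp1 did not pass in any of these comparisons. Without WT RCA replicate 1 the RCA difference was -0.78, and without WT LCA replicate 3, the array that stood apart, the LCA difference was -0.40. A KO group wholly below the WT group on both sides was found for 136 of 32606 probes (0.417%), and Efemp1 was the 1 fibulin probe among them. This count covers only the direction that Efemp1 took, so it does not measure how rare such a pattern is in either direction. The arrays of both sides may also come from the same mice.

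For the RCA, 1 of 7 kept fibulin probes had groups that did not overlap (11.6% of all kept probes), and for the LCA 2 of 7 (12.6%), which are Efemp1 and Fbln1 ILMN_2870672. These tissue samples hold several cell types, so fewer cells of a type and less RNA per cell cannot be told apart for any of these values.

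Fbln1 was read by probes that differ in what they show. ILMN_2870672 read 114, 140 and 104 in WT RCA, 105, 125 and 91.0 in WT LCA, 133, 136 and 108 in KO RCA, and 164, 184 and 320 in KO LCA. The 3 KO LCA arrays were above the other 9 arrays, and those 9 overlapped among their groups. The mean was 223 ± 85.1 (SD, n = 3) in KO LCA and 107 ± 17.0 in WT LCA.

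For this probe the KO minus WT difference in the LCA was 1.01 ± 0.24 (log2, SE), a 2.01-fold higher level, with a 95% interval of 0.48 to 1.54, a limma p of 0.00182 and an adjusted p of 0.327. In the RCA it was 0.072 ± 0.24, with an interval of -0.46 to 0.60. Averaged over both sides it was 0.54 ± 0.17 (limma adjusted p = 0.499). Fbln1 ILMN_2870672 did not pass in any of them. Leaving out 1 array at a time gave 0.71 to 1.19 in the LCA, the lowest without KO LCA replicate 3. Subtracting each array's lowest value before the log gave 1.66 in the LCA, still with an adjusted p of 0.216.

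The other Fbln1 probes gave smaller differences in the LCA. ILMN_2602770 read 101, 95.5 and 85.0 in WT LCA and 100.4, 119 and 116 in KO LCA. The groups overlapped by 1 array, and the difference was 0.25 ± 0.089 (limma adjusted p = 0.657). ILMN_2449644, not kept by the filter, read 87.0, 81.9 and 83.8 in WT LCA and 102, 115 and 92.3 in KO LCA, with a difference of 0.29 ± 0.076 (limma adjusted p = 0.529 over all 45281 probes). All 3 KO LCA arrays were above the WT LCA arrays, but 2 of them exceeded the receptor level and no WT LCA array did, so no fold is given. ILMN_2497957 and ILMN_2728985, at background on all arrays, gave 0.066 ± 0.069 and -0.037 ± 0.048.

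Across the 12 arrays the correlation between pairs of Fbln1 probes ran from -0.419 to 0.601, the highest being between ILMN_2870672 and ILMN_2602770. It describes arrays that share groups and preparation. Which transcripts of Fbln1 each probe reads is not given in the labels.

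Fbln2 showed no difference between genotypes beyond its spread. ILMN_1245307 read 136, 300 and 159 in WT RCA, 188, 163 and 94.7 in WT LCA, 249, 151 and 122 in KO RCA, and 153, 115 and 130 in KO LCA. All groups overlapped, and the highest value, 300, was on WT RCA replicate 2. ILMN_3132949 read 122, 172 and 155 in WT RCA, 141, 151 and 101 in WT LCA, 181, 141 and 127.7 in KO RCA, and 133, 187 and 120 in KO LCA, again with overlap of all groups. ILMN_2626153 was dimmer, from 84.9 to 149.

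The KO minus WT differences of the Fbln2 probes ILMN_1245307, ILMN_2626153 and ILMN_3132949 were -0.16 ± 0.36, -0.13 ± 0.16 and -0.0012 ± 0.22 in the RCA. In the LCA they were -0.11 ± 0.36, -0.065 ± 0.16 and 0.16 ± 0.22. The 95% interval of ILMN_3132949 in the LCA was -0.33 to 0.65 and that of ILMN_1245307 was -0.93 to 0.70, so these arrays do not show that the levels are alike. The smallest limma adjusted p among these values was 0.894.

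**Figure D2:**
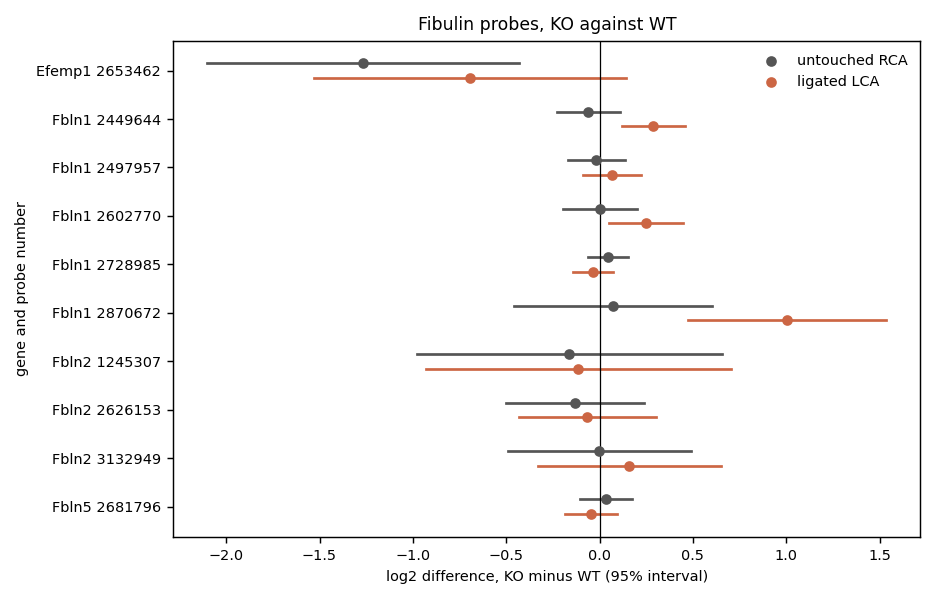
KO minus WT difference of each of the 10 fibulin probes on the log2 scale, in the untouched artery (RCA) and in the ligated artery (LCA). Points are limma estimates and lines are 95% intervals. The Efemp1 estimates lie below 0 on both sides (-1.27 and -0.69), and that of Fbln1 ILMN_2870672 lies above 0 in the LCA (1.01). The Efemp1 interval in the LCA includes 0, as do all Fbln2 and Fbln5 intervals.

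Ligation was next compared within each genotype, as LCA minus RCA 1 day after surgery. No kept fibulin probe passed in WT (0% of kept probes passed) or in KO (0%). In limma at an unadjusted p of 0.05, 2 of 7 kept fibulin probes differed in WT, where 6.79% of all kept probes did, and 1 of 7 in KO, where 7.62% did. The groups did not overlap for 1 of 7 in WT (10.9% of all kept probes) and for 3 of 7 in KO (20.6%).

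In WT arteries Efemp1 differed by -0.86 ± 0.37 between the ligated and the untouched side (limma adjusted p = 0.691), with overlapping groups. Without WT RCA replicate 1, whose intensity was 741, this difference was -0.38. Without both WT arrays numbered 3 it was -1.41. In KO arteries Efemp1 differed by -0.29 ± 0.37 (limma adjusted p = 0.892), and all 3 LCA arrays were below the RCA arrays. The group order of Efemp1 was WT RCA, WT LCA, KO RCA and KO LCA from high to low. The middle pair, WT LCA and KO RCA, lay 0.402 apart on the log2 scale, within the larger SD of 0.524, and the ranges of WT RCA and WT LCA overlapped.

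Fbln1 ILMN_2870672 differed by -0.16 ± 0.24 with ligation in WT and by 0.77 ± 0.24 in KO. The KO value had a 95% interval of 0.24 to 1.30, a limma p of 0.00906 and an adjusted p of 0.632, with all LCA arrays above all RCA arrays. Without KO LCA replicate 3, whose intensity was 320, it was 0.48. The interaction, which is the ligation effect in KO minus that in WT, was 0.93 ± 0.34 with an interval of 0.18 to 1.68, a limma p of 0.0198 and an adjusted p of 0.921. For the interaction 0% of kept probes passed, and at an unadjusted p of 0.05 the count was 1 of 7 kept fibulin probes, beside 3.61% of all kept probes.

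Fbln1 ILMN_2602770 differed by -0.21 ± 0.089 with ligation in WT (limma adjusted p = 0.691), with the LCA arrays wholly below the RCA arrays at 103, 111 and 110. In KO it differed by 0.042 ± 0.089. ILMN_2449644 differed by 0.32 ± 0.076 in KO (limma adjusted p = 0.479 over all probes). No KO RCA array exceeded the receptor level and only 2 of the 3 KO LCA arrays did, so no fold is given.

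The LCA minus RCA differences of the Fbln2 probes did not pass. They were -0.38 ± 0.36, -0.27 ± 0.16 and -0.20 ± 0.22 in WT for ILMN_1245307, ILMN_2626153 and ILMN_3132949, and -0.34 ± 0.36, -0.20 ± 0.16 and -0.041 ± 0.22 in KO. ILMN_2626153 exceeded the receptor level on 0 of 3 KO LCA arrays, so its KO value is set against background. The KO value of ILMN_3132949 took the other sign without KO RCA replicate 1 (0.103), KO LCA replicate 1 (0.018) or KO LCA replicate 3 (0.088), and its WT value was 0.0082 without both WT arrays numbered 3. These are 3 readings of 1 gene on the same arrays and not separate evidence. The WT value of ILMN_1245307 was -0.041 without WT RCA replicate 2 and -0.090 without WT LCA replicate 3. With WT and KO averaged, 0 of 7 kept fibulin probes differed in limma at an unadjusted p of 0.05, where 10.7% of all kept probes did, and 0% of kept probes passed.

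**Figure D3:**
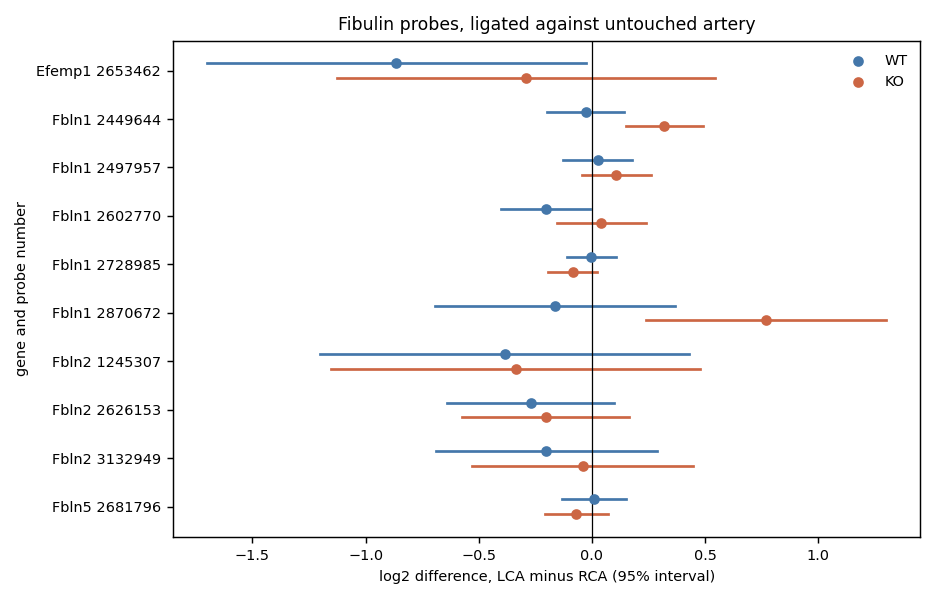
Ligated minus untouched artery (LCA minus RCA) for each of the 10 fibulin probes on the log2 scale, in WT and in KO. Points are limma estimates and lines are 95% intervals. Fbln1 ILMN_2870672 lies at 0.77 in KO and at -0.16 in WT, and Efemp1 lies at -0.86 in WT and at -0.29 in KO. The Fbln1 ILMN_2870672 interval in WT and the Efemp1 interval in KO include 0, as do all Fbln2 intervals.

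Markers of cell types that make fibulins were set beside these values. Of 15 listed fibroblast markers 14 had a probe, none of them listed at 0. Their summed intensity ran from 2500 to 3309 in WT RCA, 1831 to 2145 in WT LCA, 2020 to 2409 in KO RCA and 2131 to 2877 in KO LCA. In the LCA 12 of 14 were higher in KO than in WT and 2 lower, with 0 passing and a median difference of 0.43. In the RCA 5 were higher and 9 lower, with 0 passing and a median of -0.034. Decorin (Dcn), a collagen-binding proteoglycan of fibroblasts, averaged 181 ± 63.1 (SD, n = 3) in WT LCA and 403 ± 188 in KO LCA. The 2 markers lower in the LCA were Clec3b, at 409 ± 225 in WT and 191 ± 35.4 in KO, and Lum, at 124 ± 44.3 and 98.3 ± 3.86.

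The fibroblast sums of KO LCA overlapped those of WT LCA, at 2131 on KO LCA replicate 2 against 2145 on WT LCA replicate 2. They also overlapped those of WT RCA. The mean log2 intensity of the same list did not overlap in the LCA, from 6.83 to 7.07 in WT and from 7.18 to 7.50 in KO. Fbln1 ILMN_2870672 was higher on the KO LCA arrays than on the other 9. The part of these markers in the Fbln1 and Efemp1 values was not tested.

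Of 12 listed smooth muscle markers, all had a probe and 11 were tested. Their summed intensity ran from 1467 to 1681 in WT RCA, 1177 to 2113 in WT LCA, 2048 to 2935 in KO RCA and 3244 to 4450 in KO LCA. The KO sums were above the WT sums on each side. In the LCA 9 of 11 were higher in KO, 1 passing, and in the RCA 8 of 11, 0 passing. Acta2, the smooth muscle actin, averaged 287 ± 214 in WT LCA and 999 ± 89.6 in KO LCA. The higher level in KO was not shared by all markers of the list. Myh11 averaged 92.9 ± 7.03 in WT LCA and 101.5 ± 14.98 in KO LCA, and Cnn1 95.5 ± 2.89 and 93.55 ± 3.33. In the LCA, Cnn1 and Des exceeded the receptor level on 0 arrays of either genotype. Lmod1 did so on 0 WT arrays and 1 KO array, and Myh11 on 1 WT array and 2 KO arrays. The LCA values of these genes therefore lie at or near background. The endothelial sums overlapped between genotypes on both sides, from 3631 to 4263 in WT LCA and 3393 to 6033 in KO LCA. Of 8 listed adipocyte markers 7 had a probe, and their sums ran from 658 to 905 in WT LCA and from 989 to 1275 in KO LCA without overlap, with 4 of 6 tested genes higher in KO, 2 lower and 0 passing. In the RCA they ran from 680 to 881 in WT and from 656 to 841 in KO. Of 6 listed erythrocyte markers 4 had a probe, and their sums ran from 694 to 1894 in WT RCA and from 2071 to 5387 in KO RCA without overlap, with 4 of 4 higher in KO and 0 passing. In the LCA they ran from 1372 to 1988 in WT and from 1377 to 2847 in KO. The sums of 7 macrophage markers overlapped between genotypes, from 651 to 676 in WT RCA, 658 to 733 in KO RCA, 639 to 917 in WT LCA and 704 to 949 in KO LCA. Markers of lymphocytes, Schwann cells and skeletal muscle were above the receptor level for at most 1 gene of a list on any array. The part of the smooth muscle, adipocyte and erythrocyte markers in the Efemp1 and Fbln1 values was not tested.

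**Figure D4:**
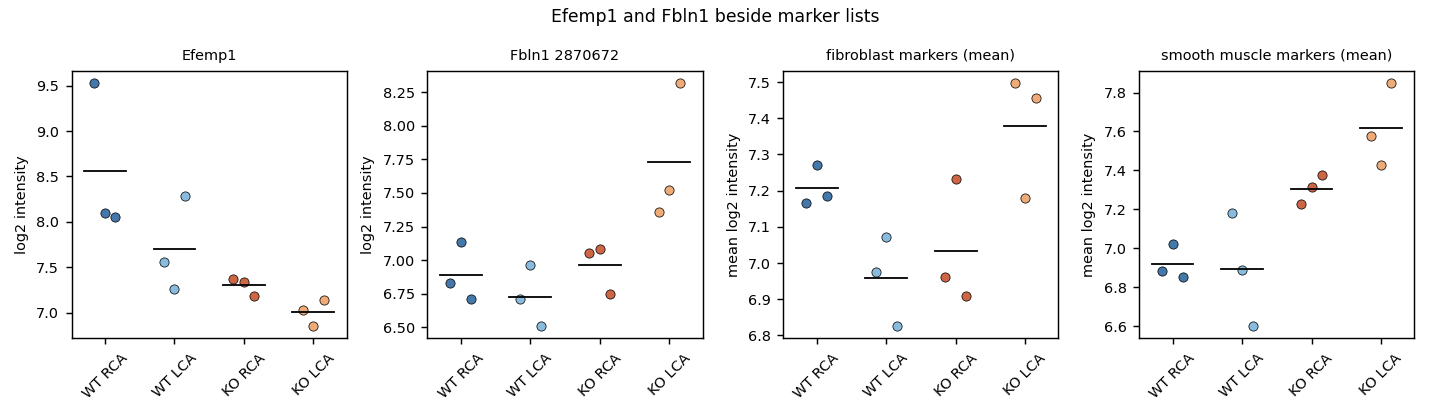
Log2 intensity of Efemp1 and Fbln1 ILMN_2870672, and the mean log2 intensity over the fibroblast and the smooth muscle marker lists, on each of the 12 arrays by group. Points are arrays, bars are group means and each panel has its own axis range. The fibroblast mean ran from 6.83 to 7.07 in WT LCA and from 7.18 to 7.50 in KO LCA, and the smooth muscle mean from 6.60 to 7.18 and from 7.43 to 7.85.

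Among the other relatives, fibulin-7 (Fbln7) and hemicentin-1 (Hmcn1) had probes. No probe was annotated to the symbol of fibulin-4 (Efemp2) or hemicentin-2 (Hmcn2) alone, so these were not analysed here. Fbln7, a cell adhesion member of the family, averaged 89.5 ± 4.95 (SD, n = 3) on WT RCA arrays, 110 ± 22.9 on WT LCA, 91.5 ± 4.04 on KO RCA and 103 ± 11.4 on KO LCA arrays. It exceeded the receptor level on 3 of 12 arrays, all of them LCA. Its KO minus WT difference was 0.033 ± 0.14 in the RCA and -0.090 ± 0.14 in the LCA. With ligation it differed by 0.28 ± 0.14 in WT (limma adjusted p = 0.691) and 0.16 ± 0.14 in KO. As no RCA array exceeded the receptor level, both ligation values are set against background. The highest Fbln7 intensity, 134, was on WT LCA replicate 3, the array that stood apart. The 2 Hmcn1 probes exceeded the receptor level on 0 of 12 arrays.

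The elastic fibre genes, which encode elastin, microfibril proteins, cross-linking enzymes and latent TGF-beta binding proteins, were set beside the fibulins. Of 19 listed genes, 16 were tested. In the RCA 7 were higher and 9 lower in KO, and in the LCA 8 were higher and 8 lower, with 0 passing on either side and medians of -0.014 and 0.0077. In limma at an unadjusted p of 0.05, 3 of 16 differed in the LCA, all higher, beside 4.4% of all kept probes in that direction. Mfap4, a microfibril-associated protein, was the nearest to passing at 0.39 ± 0.066 (limma adjusted p = 0.111). It exceeded the receptor level on 0 WT LCA arrays, so this value is set against background. Mfap5, another microfibril-associated protein, was at 0.68 ± 0.18 (limma adjusted p = 0.402) and is also on the fibroblast list. Ltbp1 was at 0.66 ± 0.17 (limma adjusted p = 0.405), but its other 5 probes ran from -0.20 to 0.072. Elastin (Eln) averaged 286 ± 203 in WT LCA and 223 ± 81.5 in KO LCA, with a KO minus WT difference of 0.40 ± 0.70 in the RCA and -0.16 ± 0.70 in the LCA.

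In the RCA the elastic fibre genes with the smallest p were Emilin1 at -0.15 ± 0.076, Ltbp4 at -0.44 ± 0.27 and Ltbp1 at 0.28 ± 0.17, all with a limma adjusted p of 1, while the other 5 Ltbp1 probes ran from -0.066 to -0.016 and the other Ltbp4 probes were at -0.26 and -0.24. With ligation 5 of 16 were higher and 11 lower in WT, and 11 were higher and 5 lower in KO, 0 passing in either. Mfap5 was at -0.60 ± 0.18 in WT (limma adjusted p = 0.674) and Mfap4 at 0.27 ± 0.066 in KO (limma adjusted p = 0.632). Mfap4 and Emilin1 exceeded the receptor level on 0 KO RCA arrays, so their values in this paragraph are set against background.

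The list of fibulin partners holds matrix proteins, proteases, an inhibitor and integrins known to bind or process fibulins, and 15 of its 17 genes were tested, each by its brightest probe. In the RCA 9 were higher and 6 lower in KO, and in the LCA 10 were higher and 5 lower, with 0 passing on either side and medians of 0.026 and 0.19. At an unadjusted p of 0.05 in limma, 4 were higher and 1 lower in the LCA, beside 4.4% and 1.91% of all kept probes. The 3 with the smallest p in the LCA were Timp3, the integrin subunit Itga5 at 0.66 ± 0.18 (limma adjusted p = 0.488) and the extracellular superoxide dismutase Sod3 at -1.04 ± 0.33 (limma adjusted p = 0.583). The basement membrane proteoglycan perlecan (Hspg2) was at 1.01 ± 0.43 and the integrin subunit Itgb1 at 1.13 ± 0.46. The other probe was at 0.85 ± 0.36 for Hspg2, 0.29 ± 0.29 for Itgb1 and 0.52 ± 0.20 for Itga5.

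Timp3, the inhibitor that fibulin-3 binds, was read by 3 probes, all higher in KO on each side. ILMN_1232928 read 305, 439 and 357 in WT RCA, 231, 184 and 240 in WT LCA, 688, 481 and 461 in KO RCA, and 622, 476 and 703 in KO LCA. The KO arrays were above the WT arrays on each side without overlap. Its KO minus WT difference was 0.56 ± 0.20 in the RCA (limma adjusted p = 1) and 1.45 ± 0.20 in the LCA (limma adjusted p = 0.0627). Averaged over both sides it rose by 1.00 ± 0.14, with a limma adjusted p of 0.0498, and it passed in 3 of 20 alternative settings, with adjusted p from 0.0339 to 0.215. The brightest probe, ILMN_2741096, gave 0.64 ± 0.25 in the RCA, 1.04 ± 0.25 in the LCA and an average of 0.84 ± 0.18 (limma adjusted p = 0.192). ILMN_2614759 gave 0.38 ± 0.36, 1.49 ± 0.36 and 0.93 ± 0.26 (limma adjusted p = 0.38). On the same arrays Efemp1 had the opposite sign, and a relation between the pair was not tested.

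The genes whose probes were most like each fibulin over the 12 arrays were named as a description, among 10078 probes above the receptor level on at least 6 arrays. The arrays share groups and preparation, and with so many candidates a high r is given by the choice. For Efemp1 they were Pias1, with a Pearson r of 0.966 and 0.898 without the 2 arrays farthest from the Efemp1 median, then Hmgn2 (r 0.941), Rsbn1l (r 0.935), Pkhd1l1 (r 0.933) and Zfp457 (r 0.919). For Fbln1 ILMN_2870672 they were Ctsz, with r of 0.963 and 0.86 without those 2 arrays, Ppm1b (r 0.926), Katna1 (r 0.922), Nabp2 (r 0.922) and Denn2b (r 0.921). For Fbln2 ILMN_1245307 they were Atp10d (r 0.91), Sfxn3 (r 0.9), Csnk1e (r 0.881), Ubr7 (r 0.876) and Glul (r 0.864). For the Fbln5 probe, which stayed at background, they were Tnrc6b, Skint6, Tcp11l2, Homez and Ddrgk1, with r from 0.819 to 0.852. Without the 2 arrays farthest from the median of each fibulin probe, r was lower for all of these genes. For the Efemp1 genes after Pias1 it was 0.727 to 0.776, and for the Fbln1 genes after Ctsz 0.585 to 0.808. For the Fbln2 genes it was 0.604 to 0.819, and for the Fbln5 genes 0.53 to 0.644. None of these names is on the elastic fibre or partner lists.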

How the data were processed

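The deposited table holds linear probe intensity values for 45281 probes on 12 arrays, already brought to 1 distribution by the authors (sorted values differed by at most 0.562% between arrays). Not given in the sources used here are the scanner software, background step, normalization tool, genome build and the chip or slide of each array, so no slide block was fitted. RNA was extracted with the Qiagen miREasy kit and biotin-labelled with the Ambion MessageAmp kit, per the labels' protocols. Probes were named through the platform annotation: 34885 had 1 symbol, 18 several and 10378 none.

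The filter on low values asked for 3 or more arrays with the probe at its array's median or higher, which 32606 probes met. Log2 intensity was fitted with limma 3.58.1 in R 4.3.3 on 4 group means, with eBayes, two-sided p and Benjamini-Hochberg adjustment over kept probes, in 7 comparisons: ligation in each genotype, genotype on each side, their interaction and both averages. Fibulin probes not kept take their values from a fit on all probes. Differences are on the log2 scale. The fit was tested on simulated data with independent normal noise for each probe. That simulation held no intensity floor, no outlying array and no shared mice, so it does not speak to these.

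Lists used the brightest kept probe of a gene. Named were all fibulin probes, all other fibulins and hemicentins with a probe, genes among the 3 smallest p of the elastic fibre and partner lists in a comparison, and the 5 probes most like each member gene's brightest. Dcn, Clec3b, Lum, Acta2, Myh11, Cnn1, Des, Lmod1 and Eln were singled out after their values were seen. So were the LCA genotype values of Hspg2 and Itgb1, the marker genes beside the receptor level and the single probes of Timp3. The members and lists were chosen with earlier results of these data known. The alternatives are given at the end.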

Additional observations from a re-analysis of the deposited data

How the results depend on the processing

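None of the 1230 alternative values of the fibulin probes reached the threshold, and adjusted p ran from 0.216 upward. Efemp1 (KO minus WT) kept its sign in all alternatives, from -1.64 to -0.78 in the RCA and from -1.05 to -0.40 in the LCA, as did Fbln1 ILMN_2870672 in the LCA, from 0.71 to 1.66. Of the fibulin values 65 took the other sign, in 26 of 70 pairs of a probe and a comparison, none of them passing, and the largest main value among them was 0.201. The cause was not tested. With array weights the values with the other sign were Fbln1 ILMN_2497957 -0.025 (ligation in WT), Fbln2 ILMN_3132949 0.029 (genotype in the RCA), Fbln2 ILMN_3132949 -0.046 (genotype in the LCA), Fbln2 ILMN_1245307 -0.093 (the interaction), Fbln2 ILMN_3132949 -0.075 (the interaction), Fbln2 ILMN_3132949 -0.0089 (genotype averaged). Without both WT arrays numbered 3 the values with the other sign were Fbln1 ILMN_2497957 -0.052 (ligation in WT), Fbln2 ILMN_3132949 0.0082 (ligation in WT), Fbln1 ILMN_2870672 -0.020 (genotype in the RCA), Fbln2 ILMN_3132949 0.030 (genotype in the RCA), Fbln1 ILMN_2728985 0.0026 (genotype in the LCA), Fbln2 ILMN_3132949 -0.019 (genotype in the LCA), Fbln2 ILMN_1245307 -0.13 (the interaction), Fbln2 ILMN_3132949 -0.049 (the interaction). Leaving out 1 array gave the other sign for the following, as ranges. For ligation in WT they were Fbln1 ILMN_2728985 -0.042 to 0.026, Fbln1 ILMN_2449644 -0.052 to 0.015, Fbln5 ILMN_2681796 -0.0064 to 0.020, Fbln1 ILMN_2497957 -0.014 to 0.055. For ligation in KO they were Fbln2 ILMN_3132949 -0.23 to 0.10, Timp3 ILMN_2614759 -0.36 to 0.018, Timp3 ILMN_2741096 -0.36 to 0.0009, Fbln1 ILMN_2602770 -0.0063 to 0.12. For genotype in the RCA they were Fbln1 ILMN_2497957 -0.080 to 0.028, Fbln1 ILMN_2602770 -0.053 to 0.051, Fbln2 ILMN_2626153 -0.31 to 0.052, Fbln2 ILMN_1245307 -0.45 to 0.18, Fbln2 ILMN_3132949 -0.15 to 0.11, Fbln1 ILMN_2870672 -0.020 to 0.19, Fbln5 ILMN_2681796 -0.033 to 0.10. For genotype in the LCA they were Fbln2 ILMN_1245307 -0.41 to 0.085, Fbln1 ILMN_2728985 -0.061 to 0.0026, Fbln2 ILMN_3132949 -0.029 to 0.29. For the interaction they were Fbln2 ILMN_2626153 -0.12 to 0.25, Fbln2 ILMN_1245307 -0.30 to 0.34, Fbln2 ILMN_3132949 -0.028 to 0.30. For genotype averaged they were Fbln2 ILMN_1245307 -0.28 to 0.035, Fbln1 ILMN_2728985 -0.0096 to 0.024, Fbln2 ILMN_3132949 -0.015 to 0.14, Fbln1 ILMN_2497957 -0.0071 to 0.047, Fbln5 ILMN_2681796 -0.039 to 0.029. For ligation averaged they were Fbln5 ILMN_2681796 -0.064 to 0.0038. The number of arrays and the nearness of most probes to background limit all of these.

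The counts of all probes passing depended more on the setting. For genotype in the LCA the 12 became 1 without the filter, 1 with 1 probe per gene, 0 with eBayes trend and robust (in limma, beside 2058 at an unadjusted p of 0.05 as fitted), 4 with array weights, 0 with the replicate number as a fixed block and 0 with only the 2 groups compared. For genotype averaged the 31 became 17 with 1 probe per gene, 1 with trend and robust, 20 with the replicate block and 10 without both WT arrays numbered 3. For ligation in WT the 0 became 1 with array weights and 12 without both WT arrays numbered 3, and without them genotype in the RCA gave 7 and ligation averaged 4. Leaving out 1 array gave 2 to 9 for ligation in WT, 0 to 5 for ligation in KO, 1 to 6 for genotype in the RCA, 0 to 26 for genotype in the LCA, 0 to 4 for the interaction, 2 to 44 for genotype averaged and 0 to 3 for ligation averaged. With the 99th percentile of the receptor probes, 9 of 40 combinations exceeded it on all arrays, not 14. The causes were not tested.

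The labels give replicate numbers 1 to 3 in each group. The sample descriptions join genotype, number and side, so that LCA and RCA arrays of 1 number and genotype may come from 1 mouse, but no label says so. Deviations of same-numbered LCA and RCA arrays correlated between -0.024 and 0.0883, and of same-numbered WT and KO arrays between -0.134 and 0.0638. RCA arrays of WT numbers 1, 2 and 3 and KO number 3 correlated best with the LCA array of their own number. Those of KO numbers 1 and 2 did not. This does not settle the question, and the numbers were not taken as pairs. If arrays of 1 number do share a mouse, the genotype averages count both arrays of that mouse as separate. With the number and genotype as a random block the consensus correlation was 0.0663. No block brought a fibulin probe past the threshold. The setting with 1 probe per gene holds no value for the other probes of a gene.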
